A study of Mus musculus with 6 samples.

Results

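The 35 genes described here encode proteins of homologous recombination and of the Fanconi anaemia pathway, which repairs crosslinks between the DNA strands. They were taken by symbol, as named genes of these pathways, and all 35 were found among the 38924 genes of the count table and passed the filter on low counts. RNA was sequenced from mouse epidermal cells purified by CD49f, an integrin subunit that anchors the basal layer to the basement membrane. Each of the 6 libraries came from mice homozygous for a floxed Rnaseh2b allele (flox/flox): 3 carried K14-Cre, a recombinase under the keratin 14 promoter of basal keratinocytes (K14-Cre+, called Cre-positive), and 3 did not (K14-Cre-, called Cre-negative). The promoter directs Cre to keratinocytes, so Rnaseh2b RNA left in the Cre-positive libraries may come from other cells or from keratinocytes that kept the allele, which was not tested. The labels give neither age nor strain and do not tie a library to an animal. Both sexes occurred within each group (below), so neither group came from a single animal. P-values measure the spread between libraries, part of which may be technical.

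Homologous recombination mends a double-strand break by copying the intact sister chromatid, so it works in S and G2 phase, and several of its genes are transcribed mainly in dividing cells. The broken ends are first trimmed to single strands, and BRCA1, BRCA2 and their partners then prepare these strands to pair with the template. In the Fanconi pathway a core complex attaches ubiquitin to FANCD2 and FANCI at a stalled replication fork, which brings nucleases to the lesion. RNase H2, of which Rnaseh2b encodes a subunit, starts the removal of ribonucleotides from DNA. The comparison asks how these repair genes are expressed when the Cre that deletes Rnaseh2b is present.

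Library totals ran from 22948779 to 31718094 counts. Rnaseh2b, the targeted gene, had 172, 90 and 69 counts in the Cre-positive and 543, 504 and 570 in the Cre-negative libraries, lower in each library labelled K14-Cre+ (log2 ratio -2.34, SE 0.17, adjusted p = 0.0102 by edgeR). Krt5 and Krt14, keratins of the basal layer, were high in both groups, at 7954 ± 215 and 5483 ± 319 CPM (counts scaled to an equal library size) in Cre-positive and 8524 ± 761 and 5254 ± 580 CPM in Cre-negative cells (SD, n = 3 each). Of the 8 basal markers, 1 was lower without overlap, Krt15 (log2 ratio -0.92, SE 0.15, adjusted p = 0.0572 by edgeR). Itgb4 was the 1 higher without overlap (log2 ratio 0.50, SE 0.10, adjusted p = 0.0865 by edgeR). Over all tested genes, 13.8% were lower and 14.1% higher without overlap. Without Cre-positive replicate 3, Krt15 had -1.07 (edgeR adjusted p = 0.00427) and Itgb4 0.40 (edgeR adjusted p = 0.0302). Among markers of other cells, the summed level of the 8 fibroblast markers was 1716 CPM in Cre-positive replicate 1 and 1023 CPM in Cre-negative replicate 3, against 360 to 498 CPM in the other libraries. Vim and Col3a1 were the most abundant of them. Vim had 285 ± 47.3 CPM in Cre-positive and 188 ± 21.9 CPM in Cre-negative cells (SD, n = 3 each). Its groups did not overlap (log2 ratio 0.60, SE 0.14, adjusted p = 0.119 by edgeR). Col3a1 varied widely within each group, at 436, 23.9 and 34.3 CPM in the Cre-positive and 38.1, 76.5 and 261 CPM in the Cre-negative libraries. The 8 melanocyte markers summed to between 682 and 778 CPM in Cre-positive and between 381 and 442 CPM in Cre-negative libraries, and 0 had a negative ratio. By edgeR, 6 of them were higher at an adjusted p under 0.05, where 0.406% of all tested genes were. Among the 6 were Dct and Pmel, genes of pigment production. The 7 genes listed as T cell markers summed to between 27.4 and 44.5 CPM. Thy1 and Ptprc were the most abundant, and Ptprc is also expressed by other leukocytes. None of the 7 passed the test, but 5 (71.4%) were lower in Cre-positive libraries without overlap, against 13.8% of all tested genes. They were the receptor genes Cd3d, Cd3e, Cd3g and Cd247 and the granule gene Nkg7. Myeloid and Langerhans cell markers summed to between 82.6 and 152 CPM, with members in opposite directions. H2-Ab1, of antigen presentation, fell by 2.29 on the log2 scale (adjusted p = 0.0400 by edgeR), and Cd74 and H2-Aa had log2 ratios of -2.42 and -2.52 with adjusted p = 0.0572 and 0.0670 by edgeR. Lyz2, a lysozyme of myeloid cells, rose by 1.33 (adjusted p = 0.0368 by edgeR), Mpeg1 had means of 27.5 and 13.8 CPM in Cre-positive and Cre-negative cells, and Csf1r had a log2 ratio of -0.04. Cd207, which marks Langerhans cells, was at 0.109 ± 0.139 and 0.451 ± 0.165 CPM (SD, n = 3 each), too low to test. Endothelial markers such as Kdr and Cdh5 summed to between 1.90 and 24.5 CPM. The part of these other cells in the results below was not tested. By Xist and Y-linked genes, Cre-positive replicates 1 and 2 and Cre-negative replicate 2 were male, and the other 3 libraries were female.

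Cre-positive replicate 3 stood apart from the other libraries for these genes and for genes of cell division. Summed over 27 mitosis genes, its level was 995 CPM, against 1691 to 1924 CPM in the other 5 libraries. For 32 replication genes it was 931 CPM, against 1362 to 1578 CPM elsewhere. Its summed suprabasal markers, such as Krt1 and Krt10, keratins of differentiating cells, were the highest of the 6 libraries at 141991 CPM, with the others at 83806 to 126104 CPM. The mean log2 level of these markers relative to the controls was 0.14, 0.32 and 0.77 in Cre-positive replicates 1 to 3. Of 7 tested, 0 had a negative log2 ratio and 5 were higher without overlap (14.1% of all tested genes). By edgeR, 5 were higher at an unadjusted p under 0.05 (10.3% of all tested genes). Without Cre-positive replicate 3 this number was again 5 (1646 of 15525 tested genes). Cre-positive replicate 3 was also the only female Cre-positive library, so a property of this library and an effect of Cre in females cannot be told apart. Values without it are given for the counts over all members, for the gene lists and for the members whose ratio moved most. In bulk RNA, fewer cells of a type and less RNA per cell cannot be told apart either, so fewer dividing cells and less of these mRNAs in each dividing cell would look alike here.

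None of the 35 genes rose or fell past the threshold between Cre-positive and Cre-negative cells. By edgeR's quasi-likelihood test with Benjamini-Hochberg adjustment over 15525 genes, 0 members rose and 0 fell at an adjusted p under 0.05, a threshold passed by 0.406% of all tested genes upward and 0.110% downward, or 0.515% in either direction. The smallest adjusted p was 0.111, for Fancb. At an unadjusted p under 0.05 there was 1 higher member, Fancb, where 10.3% of all tested genes were higher. There were 4 lower ones, Fancl, Mus81, Rbbp8 and Rad54l, where 8.48% were lower. Rad54l lay at the cutoff itself, with an unadjusted p of 0.049996 by edgeR. With DESeq2 size factors or with a minimum mean of 1 CPM, 3 members were lower at this cutoff. Limma-voom called 0 members, and DESeq2's Wald test called 1 higher and 2 lower, when it called 3.99% of tested genes higher and 2.06% lower. Of the 35 log2 fold changes (Cre-positive over Cre-negative, called log2 ratios below), 26 were negative (51.0% over all tested genes), with a median of -0.12 against -0.0048 for all tested genes. Without Cre-positive replicate 3, 17 of 35 were negative and the median was 0.0055, while again 0 members passed by edgeR.

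**Figure D1:**
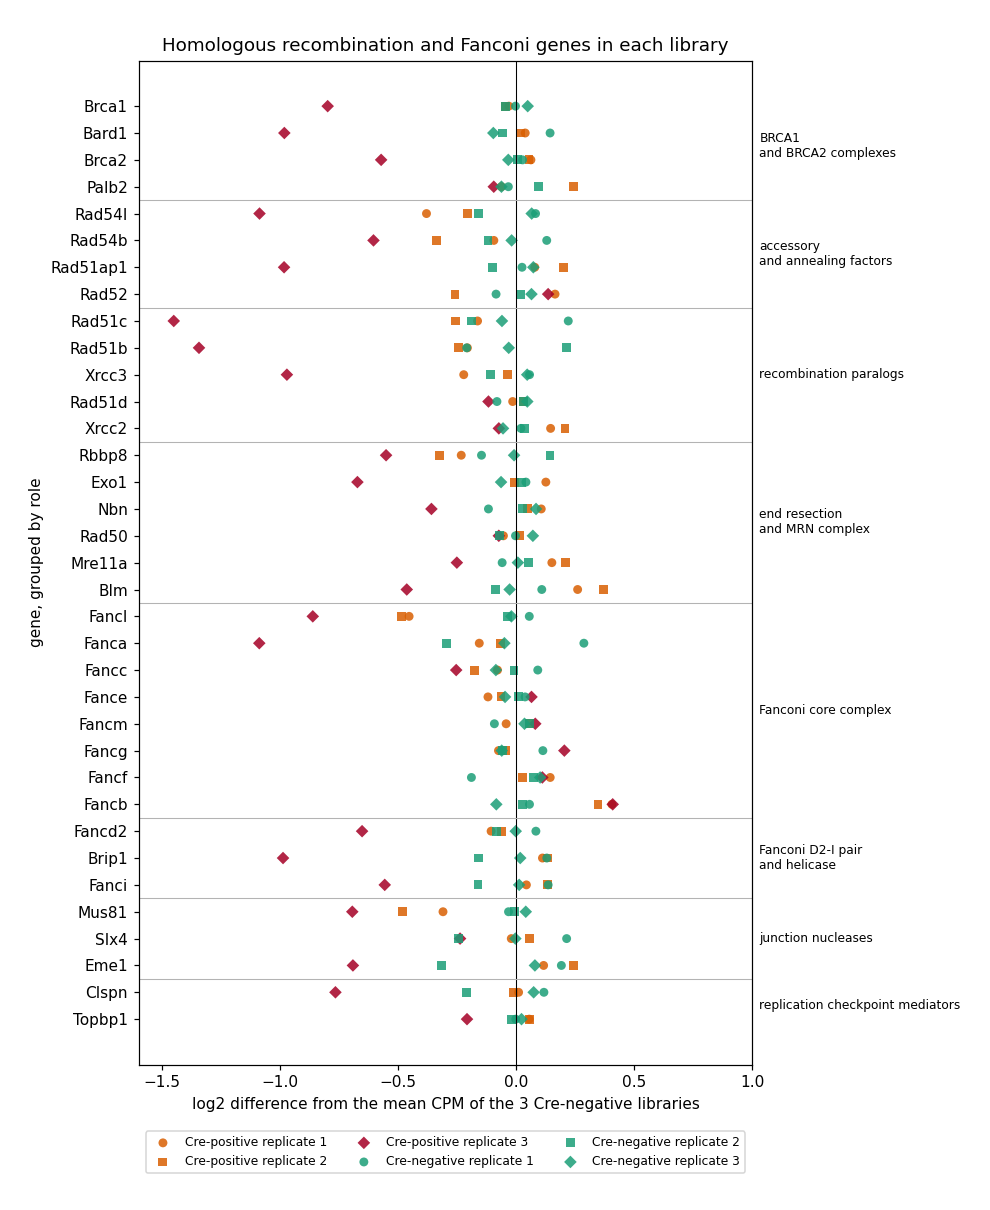
Each row is a gene and each point a library, placed by its log2 difference from the mean CPM of the 3 Cre-negative libraries; horizontal lines separate the roles. Cre-positive replicate 3 (dark red) is the lowest library for 28 of the 35 genes, reaching -1.45 for Rad51c, while most of the Fanconi core genes do not follow it.

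The members with the smallest p-values are described first, and 2 of them belong to the Fanconi core complex. Fancb (ENSMUSG00000047757, mm10 chromosome X, 164980592 to 164997272, plus strand), an X-linked gene for a subunit that supports the ubiquitin ligase of the complex, had 15.1, 14.5 and 15.2 CPM in Cre-positive replicates 1 to 3 and 11.9, 11.6 and 10.8 CPM in Cre-negative ones. All 3 Cre-positive libraries lay above all Cre-negative ones. The means were 14.9 ± 0.360 and 11.4 ± 0.578 CPM (SD, n = 3 each), a log2 ratio of 0.39 (SE 0.09, adjusted p = 0.111 by edgeR), which was 0.38 without Cre-positive replicate 3. DESeq2 gave an adjusted p of 0.0403.

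Fancl (chromosome 11, 26386135 to 26471876, plus strand), which encodes the ubiquitin ligase itself, had 6.12, 5.97 and 4.61 CPM in the Cre-positive and 8.70, 8.17 and 8.26 CPM in the Cre-negative libraries. The groups did not overlap, and Cre-positive replicate 3 was the lowest. Its log2 ratio of -0.59 (SE 0.14, adjusted p = 0.127 by edgeR) was the most negative of the 35 and was -0.47 without that library, and the DESeq2 adjusted p was 0.0344. Of its exon length, 13.7% also lies in exons of Vrk2 on the other strand. The library kit keeps strand, per the labels, but the setting used in counting is not given, so some counts may belong to Vrk2. Vrk2 had a log2 fold change of -0.09 (SE 0.20).

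Mus81 (chromosome 19, 5482345 to 5488402, minus strand), a nuclease gene whose product cuts branched DNA at forks and junctions, had 10.4, 9.21 and 7.94 CPM in the Cre-positive and 12.6, 12.8 and 13.2 CPM in the Cre-negative libraries. Every Cre-positive library lay below every Cre-negative one, and the Cre-negative libraries were close together. The log2 ratio was -0.48 (SE 0.12, adjusted p = 0.130 by edgeR; DESeq2 adjusted p = 0.0438), and -0.39 without Cre-positive replicate 3. Eme1, its partner subunit, and Slx4, the scaffold on which these nucleases assemble, had log2 ratios of -0.05 (SE 0.26) and -0.06 (SE 0.14), with overlapping groups. Eme1 lay at -0.69 in Cre-positive replicate 3, and without that library its ratio was 0.18 and that of Slx4 was 0.02. Lrrc59 on the other strand, with a mean of 2936 counts against 178 for Eme1, overlaps 8.0% of the Eme1 exons.

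Rbbp8, which encodes CtIP, the protein that starts end resection with the MRN complex, had 48.5, 45.6 and 38.9 CPM in the Cre-positive and 51.5, 63.0 and 56.7 CPM in the Cre-negative libraries. The groups were separate by a small margin. The log2 ratio was -0.36 (SE 0.11, adjusted p = 0.176 by edgeR), or -0.28 without Cre-positive replicate 3 and -0.45 with sex as a covariate (edgeR adjusted p = 0.0841). Rad54l (chromosome 4, 116094264 to 116123690, minus strand), a motor protein gene that acts in strand invasion, had 11.1, 12.5 and 6.79 CPM against 15.3, 12.9 and 15.1 CPM. The groups did not overlap, but Cre-positive replicate 2 lay just under Cre-negative replicate 2. Its log2 ratio of -0.51 (SE 0.22, adjusted p = 0.266 by edgeR) was -0.29 without Cre-positive replicate 3, and 15.4% of its exons lie in Lrrc41 on the other strand, which had -0.02.

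Over the 35 genes, groups that did not overlap were found for these 5 alone, with 4 lower where 13.8% of all tested genes were lower without overlap, and 1 higher where 14.1% were higher.

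**Figure D2:**
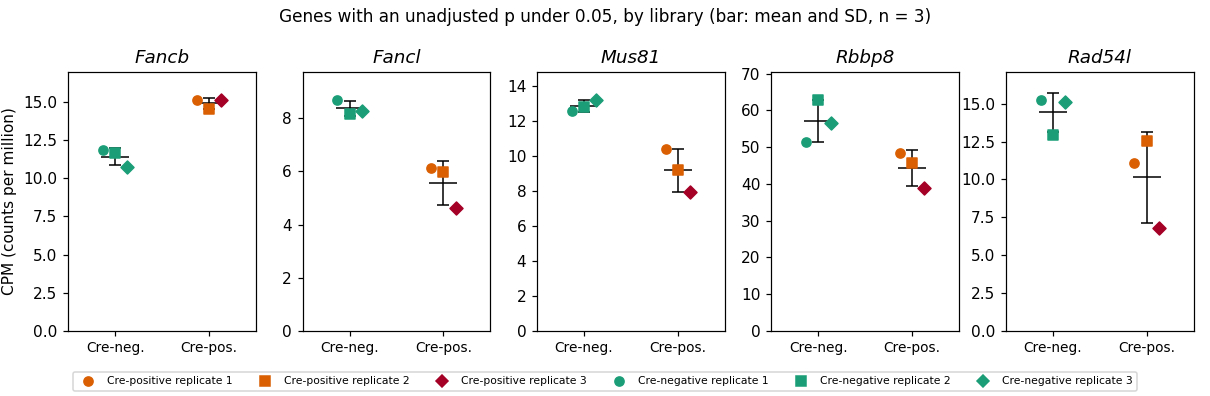
CPM in each library for the 5 genes with an unadjusted p under 0.05; points are libraries, horizontal bars the mean and whiskers the SD of 3 libraries, and each vertical axis starts at 0. Fancb is higher and the other 4 genes are lower in all Cre-positive libraries than in any Cre-negative one.

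Without Cre-positive replicate 3, the negative fold changes of the other members moved toward 0 or turned positive, except for Fance (-0.04 with it and -0.09 without). Relative to the Cre-negative mean, 19 of the 35 genes lay more than 0.5 log2 units lower in that library, where 16.7% of all tested genes did. The library was the lowest of the 6 for 28 of the 35, against 31.1% of all tested genes. In Cre-positive replicates 1 and 2, 0 of 35 lay that far below, where 4.66% and 9.73% of all tested genes did, with members ranging from -0.45 to 0.40 and from -0.49 to 0.37. The members are given by role below.

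Among genes of the BRCA1 and BRCA2 complexes, Brca1, Bard1 and Brca2 were low in Cre-positive replicate 3 and Palb2 was not. Brca1, the ubiquitin ligase gene that promotes resection, had 27.3, 27.0 and 16.01 CPM in Cre-positive and 27.8, 27.0 and 28.8 CPM in Cre-negative libraries. The first 2 Cre-positive libraries lay within 0.05 log2 units of the Cre-negative mean and replicate 3 lay at -0.80. Bard1, the partner subunit of BRCA1, had 14.2, 13.99 and 6.98 CPM against 15.2, 13.3 and 12.9 CPM, and Brca2, which acts after resection, had 26.9, 26.8 and 17.3 CPM against 26.3, 25.9 and 25.2 CPM. Cre-positive replicates 1 and 2 lay within the controls for Bard1 and slightly above them for Brca2. Palb2, which bridges BRCA1 and BRCA2, had 7.19, 8.90 and 7.03 CPM against 7.34, 8.01 and 7.19 CPM, so its groups overlapped and replicate 3 lay at -0.10.

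The paralog genes Rad51b, Rad51c, Rad51d, Xrcc2 and Xrcc3, which act together in strand exchange, were divided. Rad51c had 2.55, 2.39 and 1.05 CPM in Cre-positive and 3.33, 2.51 and 2.74 CPM in Cre-negative libraries (log2 ratio -0.50, SE 0.33, adjusted p = 0.444 by edgeR; -0.21 without Cre-positive replicate 3). Rad51b had 1.04, 1.02 and 0.475 CPM against 1.04, 1.40 and 1.18 CPM, from as few as 10 counts in Cre-positive replicate 3 (log2 ratio -0.49, SE 0.33, adjusted p = 0.452 by edgeR; -0.22 without that library). Xrcc3 had 11.3, 12.9 and 6.75 CPM against 13.8, 12.3 and 13.7 CPM (log2 ratio -0.36, SE 0.22, adjusted p = 0.420 by edgeR; -0.13 without that library). In Rad51c, Rad51b and Xrcc3, replicate 3 lay apart, at -1.45, -1.34 and -0.97. Rad51d and Xrcc2 were level, with replicate 3 at -0.12 and -0.07 and log2 fold changes of -0.03 (SE 0.09) and 0.10 (SE 0.13).

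Of the accessory factors, Rad51ap1, which promotes strand invasion, had 13.5, 14.7 and 6.46 CPM in Cre-positive libraries and between 11.9 and 13.4 CPM in Cre-negative ones. Its low value lay in replicate 3 alone, and the first 2 Cre-positive libraries exceeded all controls. Rad54b, a relative of Rad54l, had 9.07, 7.66 and 6.37 CPM against 10.6, 8.91 and 9.55 CPM (log2 ratio -0.33, SE 0.16, adjusted p = 0.306 by edgeR; -0.21 without Cre-positive replicate 3). Its groups overlapped only through Cre-positive replicate 1, and Fsbp on the same strand shares 49.9% of its exon length, so counts between these genes are uncertain. Rad52, which anneals single strands, lay at 0.13 in replicate 3 and at -0.26 in replicate 2, with a log2 fold change of 0.03 (SE 0.15).

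In the resection group, Rad50, Mre11a and Nbn, the 3 subunits of the MRN complex that senses broken ends, had log2 ratios of -0.04 (SE 0.07), 0.05 (SE 0.13) and -0.05 (SE 0.13). Rad50 was the steadiest of them, between 36.8 and 40.6 CPM in all 6 libraries. Exo1, a nuclease gene for long resection, had 18.8, 17.2 and 10.8 CPM in Cre-positive and 17.8, 17.5 and 16.5 CPM in Cre-negative libraries. The helicase gene Blm, which unwinds recombination intermediates, had 25.0, 26.9 and 15.1 CPM against 22.5, 19.6 and 20.4 CPM. Its Cre-positive libraries thus lay on both sides of the controls, with 2 above all of them and replicate 3 below, and the log2 fold change of 0.10 (SE 0.20) was 0.31 without replicate 3 (edgeR adjusted p = 0.105).

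The Fanconi core complex had the smallest mean shift in replicate 3 of the 8 roles, at -0.15, a difference between roles that was not tested. Of its 8 genes, Fancl and Fanca lay more than 0.5 log2 units below the controls there, while Fancb, Fance, Fancf, Fancg and Fancm lay above the Cre-negative mean, at 0.41, 0.06, 0.11, 0.20 and 0.08. Fanca, a subunit of the core, had 16.2, 17.3 and 8.51 CPM against 22.1, 14.7 and 17.5 CPM (log2 ratio -0.37, SE 0.27, adjusted p = 0.491 by edgeR; -0.11 without Cre-positive replicate 3). The Cre-negative libraries of this gene themselves differed widely, and 7.68% of its exons lie in Zfp276 on the other strand. Fancc had 15.2, 14.2 and 13.4 CPM against 17.1, 15.9 and 15.1 CPM, overlapping by a narrow margin (log2 ratio -0.17, SE 0.09, adjusted p = 0.370 by edgeR). Fance, Fancg and Fancm, the last of which anchors the complex on DNA, had log2 ratios of -0.04 (SE 0.08), 0.03 (SE 0.11) and 0.03 (SE 0.08), and Fancf had 0.09 (SE 0.16). Of the Fancf exons, 15.0% lie in Gas2 on the other strand, whose mean of 110 counts is above the 91.2 of Fancf.

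Fancd2 and Fanci encode the pair that receives ubiquitin. Fancd2 had 10.5, 10.8 and 7.18 CPM in Cre-positive and 11.95, 10.6 and 11.3 CPM in Cre-negative libraries (log2 ratio -0.25, SE 0.17, adjusted p = 0.452 by edgeR; -0.09 without Cre-positive replicate 3). Fanci and Brip1, a helicase gene whose product binds BRCA1, had 11.7, 12.5 and 7.75 CPM and 9.47, 9.60 and 4.42 CPM in the Cre-positive libraries, against 12.5, 10.2 and 11.5 CPM and 9.59, 7.84 and 8.87 CPM in the controls. For each of the 3 genes, replicate 3 lay below all other libraries, at -0.65, -0.56 and -0.99. Of the Fanci exons, 14.8% lie in Polg on the other strand.

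Of the checkpoint mediators, which relay signals from stalled forks, Clspn had 37.8, 37.3 and 22.1 CPM in Cre-positive and 40.8, 32.4 and 39.5 CPM in Cre-negative libraries. Topbp1 had 135, 135 and 113 CPM against 130, 128 and 132 CPM (log2 ratio -0.03, SE 0.09, adjusted p = 0.892 by edgeR). Both were lowest in replicate 3, Clspn by more, at -0.77 against -0.21.

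**Figure D3:**
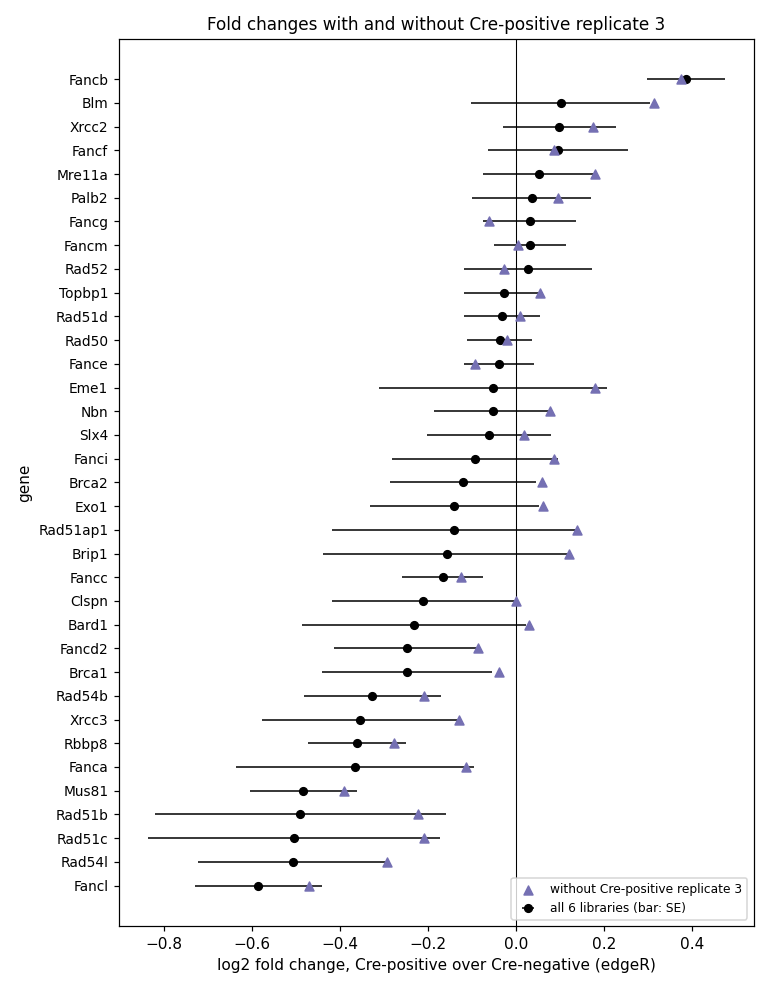
Log2 fold changes of the 35 genes by edgeR from all 6 libraries (circles, whiskers 1 SE) and without Cre-positive replicate 3 (triangles), ordered by the former. Without that library the values of Brca1, Clspn and Bard1 lie at -0.04, -0.0005 and 0.03, while those of Fancb, Fancl and Mus81 stay at 0.38, -0.47 and -0.39.

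The groups were also compared within each sex. Between the female Cre-positive library and the 2 female Cre-negative ones, 29 of 35 genes were lower, with a median log2 difference of -0.57. Between the 2 male Cre-positive libraries and the male Cre-negative one, 14 of 35 were lower, with a median of 0.01. Fancb was higher within both sexes, by 0.42 in females and 0.35 in males. Fancl, Mus81 and Rbbp8 were lower within both, at -0.88, -0.70 and -0.47 in females and -0.44, -0.39 and -0.42 in males. Rad54l was at -1.16 in females and -0.13 in males. The groups did not overlap for any of these genes, so the direction within each sex was fixed in advance and is no further support. These within-sex values rest on 1 library in 1 of the 2 arms and have no test of their own. A Cre-by-sex term was fitted in edgeR after replicate 3 had been seen to be low. It rests on that single female Cre-positive library and on a single male Cre-negative one, and takes its spread from the other libraries with 2 residual degrees of freedom. It thus joins the low values of replicate 3 to the level of that male library and is no test of a sex difference. Under it 6 members and 3.81% of all tested genes had an adjusted p under 0.05.

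Genes of neighbouring processes were set beside the members. Of 53 other genes of recombination and crosslink repair, 0 rose or fell by edgeR, 3 were lower and 0 higher at an unadjusted p under 0.05, and the median log2 fold change was -0.09, or -0.02 without Cre-positive replicate 3. The 4 with the smallest p were Cenps (-0.55, SE 0.20, edgeR adjusted p = 0.222, and -0.35 without Cre-positive replicate 3), which encodes a binding partner of FANCM, Rmi1 (-0.39, SE 0.15), a partner of BLM, and the helicase genes Helq (-0.21, SE 0.09) and Mcm8 (-0.27, SE 0.12). Genes of end joining, the repair route that rejoins breaks without a template, numbered 17 tested, with 0 past the threshold and a median of -0.16, or -0.12 without Cre-positive replicate 3. At an unadjusted p under 0.05, 4 were lower and 1 higher, where 8.48% and 10.3% of all tested genes were. A negative ratio was found for 14 of the 17 (82.4%). Without overlap, 7 (41.2%) were lower, against 13.8% of all tested genes. The 17 genes had a mean log2 level in Cre-positive replicate 3 of -0.18 relative to the controls and of -0.11 in both other Cre-positive libraries. The same mean was -0.45 for the 35 members, -0.65 for replication genes and -0.83 for mitosis genes in replicate 3, and between -0.11 and 0.13 for these 3 lists in replicates 1 and 2. By edgeR, 0 of 32 replication genes and 0 of 27 mitosis genes passed the threshold, with medians of -0.26 and -0.21. All 32 replication genes had a negative ratio, where 51.0% of all tested genes did. Of these 32, 8 were lower at an unadjusted p under 0.05 (8.48% of all tested genes). Without overlap, 11 (34.4%) were lower, against 13.8% of all tested genes. Of the mitosis genes, 24 had a negative ratio, 0 had an unadjusted p under 0.05 and 1 was lower without overlap. Without Cre-positive replicate 3 the median of the replication genes was -0.11, with 30 of 32 negative. Of the replication genes, 8 were then lower at an unadjusted p under 0.05, where 1394 of 15525 tested genes were. The median of the mitosis genes was then 0.04, with 7 of 27 negative. Of the mitosis genes, 1 then passed the threshold upward, where 288 of 15525 tested genes did. Mcm6 and Mcm5, subunits of the replicative helicase, had -0.35 (SE 0.13) and -0.38 (SE 0.22), and Mki67 and Top2a, markers of cycling cells, had -0.32 (SE 0.25) and -0.24 (SE 0.23). Without Cre-positive replicate 3 these 4 genes had -0.21, -0.16, -0.06 and 0.01. Of the most abundant genes of the other lists, Sem1 and Swi5 had 0.07 and -0.17, and Trp53bp1 and Rif1 of end joining had -0.26 and 0.00. The part of cell division in the members' values was not tested.

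**Figure D4:**
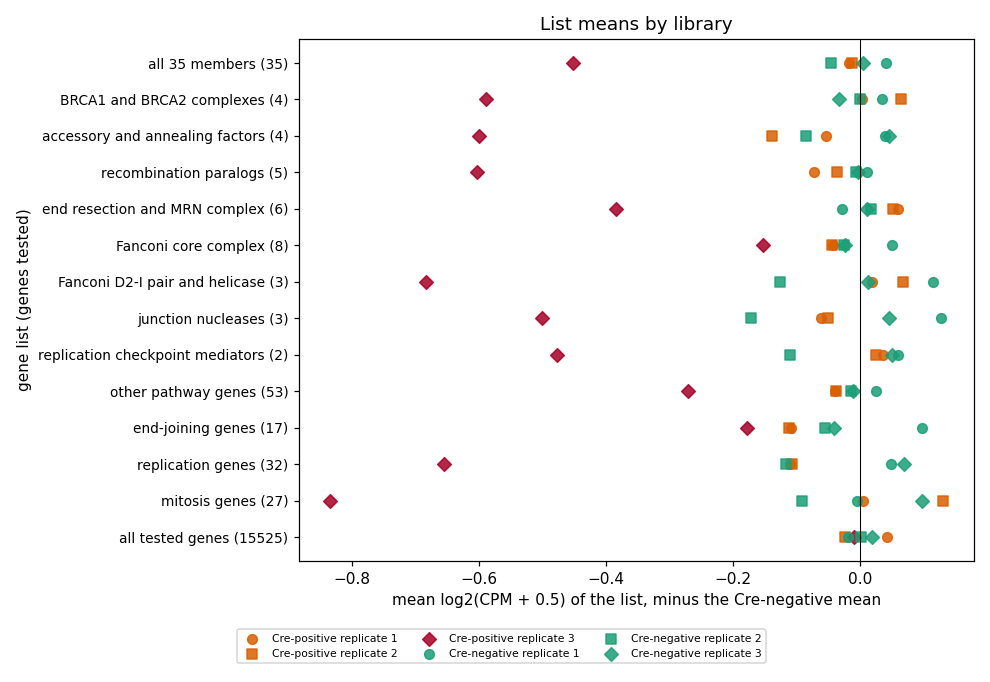
Mean log2(CPM + 0.5) of each gene list in each library, minus its Cre-negative mean, with the number of genes tested in parentheses. Cre-positive replicate 3 lies at -0.68 for Fancd2, Fanci and Brip1 together, at -0.15 for the Fanconi core genes, and at -0.01 for all tested genes.

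The levels of the members differed widely. Per kilobase of exon, Topbp1 was the highest at 24.9 ± 0.363 CPM per kilobase in Cre-negative libraries (SD, n = 3), followed by Rbbp8 at 14.8 ± 1.48 and Fance at 11.7 ± 0.349. The lowest were Rad51c at 0.652 ± 0.0968 and Rad51b at 0.679 ± 0.100, which did not differ beyond their spread. Brip1, Xrcc2 and Rad54b, the next in order, lay at 1.18 ± 0.117, 1.20 ± 0.0403 and 1.23 ± 0.108 and likewise overlapped. The median SE of the log2 fold changes was 0.155, and the largest was 0.333, for Rad51c, so a difference of the size seen for Fancb is close to 1 SE in the scarcest genes.

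**Figure D5:**
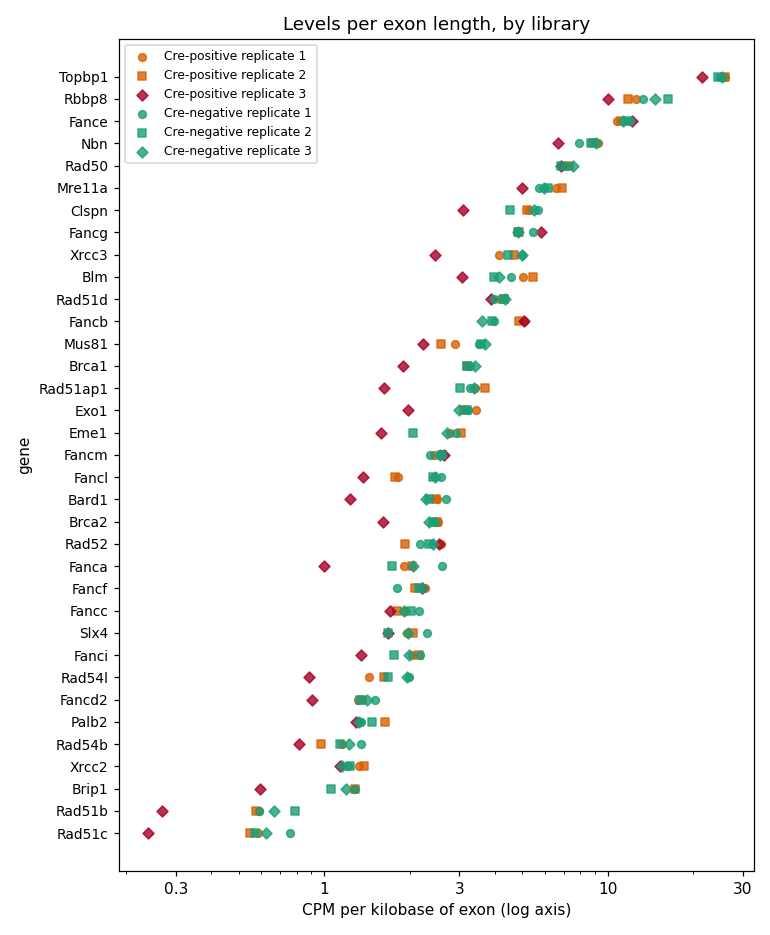
Levels of the 35 genes in CPM per kilobase of exon on a log axis, ordered by their Cre-negative mean, with a point for each library. Rad51c and Rad51b are the lowest at 0.652 and 0.679, and Topbp1 the highest at 24.9 CPM per kilobase in the Cre-negative mean.

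The promoter windows of the members were searched for a motif of E2F, the factor family that drives genes of S phase. Windows of 250 bases before to 50 after the start, from RefSeq on GRCm38.p6, were found for 27 of the 35 genes (30 windows). An E2F-type motif, TTTCCCGC or TTTGGCGC on either strand, was present in 4 windows (13.3%), against 2.65% of the 14250 windows of tested genes. The 4 matches are shown with 16 bases on each side, on the strand of the gene and 5′ to 3′, with the motif in capitals. Brca2 lies on the plus strand and the window is chr5:150522437-150522476. The other 3 genes lie on the minus strand, and their windows are chr1:71103158-71103197, chr11:87404936-87404975 and chr4:43010330-43010369.
Brca2: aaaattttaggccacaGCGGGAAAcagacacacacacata
Bard1: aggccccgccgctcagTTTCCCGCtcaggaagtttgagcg
Rad51c: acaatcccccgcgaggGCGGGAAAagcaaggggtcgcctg
Fancg: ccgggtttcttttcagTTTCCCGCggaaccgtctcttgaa

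The match starts at -168 in Brca2, -209 in Bard1, -5 in 1 of the 2 windows of Rad51c and -52 in Fancg, counted from the annotated start, and the form GCGGGAAA is the same motif read from the other strand. Of the 4 genes, Brca2, Bard1 and Rad51c were low in Cre-positive replicate 3 and Fancg was not, with 22.0 CPM against 20.7, 18.4 and 18.3 CPM in the Cre-negative libraries. Of the 23 genes with a window and no match, 12 were also more than 0.5 log2 units below the Cre-negative mean there, Brca1, Clspn and Brip1 among them. Only the 2 forms named above were searched, and the Clspn and Topbp1 windows hold a similar form, GCGCGAAA, that was not. A gene without a match may thus carry another form. The motif was in 0 of 24 windows of the mitosis genes, whose mean log2 level in that library was -0.83 relative to the controls. Whether the motif bears on these levels was not tested. A match describes the letters in a window and no binding was measured.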

How the data were processed

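The values the authors deposited are whole-number counts of reads per gene, which per the file headers were not scaled. GSNAP, featureCounts and mm10 are named in the submitters' processing notes, without versions. The strand setting and the treatment of reads shared between genes are not known here. Gene symbols were matched by identifier for 37607 of 38924 genes. Exon positions and lengths are those of the table, and overlaps with other genes are named from 5% of the exon length and a partner mean of 10 counts.

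Genes were kept by filterByExpr (minimum count 10), which left 15525, scaled with TMM factors and fitted with edgeR 4.0.16 (R 4.3.3). Its two-sided quasi-likelihood p-values were adjusted by Benjamini-Hochberg across all tested genes, with a threshold of 0.05. Fold changes are Cre-positive over Cre-negative, and CPM uses TMM-scaled library sizes. A floor of 3 counts corresponds to between 0.0922 and 0.143 CPM and covers counting error only. Counts of members ran from 10 to 4401 per library. The chi-square per degree of freedom between libraries of a group was 9.11 or more, so no pair of them agreed within sampling noise. It was 70.4 and 48.4 for Cre-positive replicate 3 against replicates 1 and 2, and 14.7 or less for every other pair.

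Alternatives were DESeq2 size factors, total count scaling, DESeq2 1.42.0, limma-voom (limma 3.58.1), no count filter, a minimum mean of 1 CPM, sex as a covariate and leaving out each library. The fits were tested on simulated data. The simulation set no library apart and gave the sexes no difference, so its outcome does not bear on Cre-positive replicate 3. The interaction of Cre with sex, the promoter motifs and the list values without Cre-positive replicate 3 were chosen after the data had been seen. The members and all gene lists were chosen with earlier results of these data known. Of the 60 names listed as other pathway genes, 53 were matched. All members are accounted for, with values in every library and the test for the 12 with the smallest p and for the highest and lowest levels. Outside the members, Rnaseh2b, 4 other pathway genes with the smallest p and the 2 most abundant genes of each other list are named. Further members given by library and further marker genes were chosen after their values were seen.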

Additional observations from a re-analysis of the deposited data

Results flagged for a closer look

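A Cre-by-sex interaction term in edgeR, fitted after Cre-positive replicate 3 had been seen to be low, marked 6 of the 35 genes. The female arm holds 1 Cre-positive library, replicate 3, and the male arm holds 1 Cre-negative library. The term thus joins the low values of replicate 3 to the differences in males. A sex difference and the standing of a single library cannot be told apart. The log2 differences in females and males were -0.51 and 0.40 for Blm, and -0.82 and 0.01 for Brca1. The log2 interaction (male minus female) was 1.40 for Fanca (edgeR adjusted p = 0.0393), 0.83 for Brca1 (0.0319), 1.07 for Clspn (0.0235), 1.34 for Brip1 (0.0436), 1.27 for Rad51ap1 (0.0327) and 0.90 for Blm (0.0412). Over all tested genes, 3.81% passed this test. Fancb, Fancl, Mus81 and Rbbp8 had interactions of -0.07, 0.44, 0.32 and 0.06, with edgeR adjusted p = 0.865, 0.377, 0.451 and 0.852.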

How the results depend on the processing

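No paired analysis was possible because the labels give the groups no shared replicate numbers. By edgeR, 0 members passed under every other scaling or filter, with sex as a covariate and without any 1 library; limma-voom called 0 and DESeq2 called 1 higher (Fancb) and 2 lower (Fancl, Mus81). Over all tested genes, edgeR called 63 higher and 17 lower. These counts became 27 higher under total count scaling, 559 and 288 with DESeq2, 104 and 38 with no filter on low counts, and 34 and 8 with sex as a covariate. Leaving out 1 library gave 0 to 288 higher and 0 to 134 lower, the most without Cre-positive replicate 3. The number of members with a negative fold change ran from 17 to 29 and their median from -0.22 to 0.0055 when any 1 library was left out, the turn of sign coming without Cre-positive replicate 3. Total count scaling moved the median of all tested genes to -0.12, and 33 members were then negative.

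Of 35 members, 15 kept their sign in all 13 alternatives. Signs turned under total count scaling for Xrcc2 (-0.0094), Fancf (-0.019), Mre11a (-0.053), Fancm (-0.086), Fancg (-0.088), Palb2 (-0.076) and Rad52 (-0.087), and with sex as a covariate for Blm (-0.043), Mre11a (-0.046) and Palb2 (-0.022). With any 1 library left out, log2 fold changes that turned ran from -0.39 to 0.029 for Bard1, -0.30 to 0.062 for Exo1, -0.22 to 0.058 for Brca2, -0.32 to 0.12 for Brip1, -0.35 to 0.14 for Rad51ap1, -0.051 to 0.31 for Blm, -0.22 to 0.086 for Fanci, -0.093 to 0.0013 for Fance, -0.17 to 0.060 for Slx4, -0.035 to 0.18 for Mre11a, -0.14 to 0.077 for Nbn, -0.012 to 0.068 for Fancm, -0.069 to 0.0079 for Rad51d, -0.071 to 0.055 for Topbp1, -0.061 to 0.092 for Fancg, -0.079 to 0.095 for Palb2, -0.22 to 0.18 for Eme1 and -0.050 to 0.15 for Rad52. The cause was not tested.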

Other observations

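Other promoter motifs of cell cycle genes were counted in the same RefSeq windows, on either strand. The cell cycle homology region, TTTGAA, was in 3 of 30 windows of the repair genes and in 18 of 24 windows of mitosis genes, against 12.3% of the windows of all tested genes. The E2F-type motif was in 10 of 29 windows of replication genes (34.5%) and in 0 of 24 of mitosis genes. The CCAAT box was in 63.3% of the windows of the repair genes, 79.2% of those of mitosis genes, 58.6% of those of replication genes, 37.5% of those of end-joining genes and 37.1% of those of all tested genes. The windows of 1 gene can overlap.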
